A study of Homo sapiens with 2 samples.

Results

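Transcripts of 48 genes of mitosis, the spindle and the kinetochore were compared between 2 RNA sequencing libraries of BT549, an established triple-negative breast cancer cell line. The members were taken by gene symbol from a list of mitotic cyclins, kinases, kinesins, checkpoint proteins and kinetochore subunits, 48 of the 58735 genes tabulated. The series concerns the kinase SIK2, the Wnt co-receptor LRP6 and beta-catenin signalling in stem-like breast cancer cells. The scrambled group carried a control short hairpin RNA and the shSIK2 group a hairpin against SIK2, a salt-inducible kinase of the AMPK-related family. Both groups received Wnt3a, a ligand that activates beta-catenin signalling, 2 h before, so neither library shows cells without it. The sources used here do not give the vector, the number of hairpins or whether the cells were clones. Each group held 1 library, so no difference has a replicate check, no test was possible and every interval below covers counting error only.

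Levels are in FPKM, the deposited unit, which scales reads for gene length, and whole reads per gene were recovered from it. The scrambled library held 18019225 such reads and the shSIK2 library 16347399. SIK2 stood at 7.80 FPKM in the scrambled and 3.56 FPKM in the shSIK2 library, 2.19-fold lower (1.99 to 2.42) with its counting interval. All 6 markers of a mesenchymal breast line reached 1 FPKM, and their summed reads were 35604 (scrambled) and 48396 (shSIK2). VIM, ZEB1, TWIST1 and FN1 differed by less than 1.5-fold, while SPARC stood at 38.1 and 189 FPKM and CDH2 at 2.44 and 0.4 FPKM. Of 9 epithelial and luminal markers, 3 reached 1 FPKM in either library, ERBB2, GATA3 and KRT18. All 3 were higher in the shSIK2 library, with KRT18 at 2.14 and 19.3 FPKM, and PGR and EPCAM had 0 reads in both. The part of these marker differences in the values below was not tested. None of 6 leukocyte and none of 4 endothelial markers reached that level. Leukocyte markers had 26 and 32 reads in all, and endothelial markers 5 and 1.

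Mitosis begins when the kinase CDK1, bound to a B-type cyclin and freed of inhibitory phosphate by CDC25 phosphatases, phosphorylates its many substrates. Chromosomes then attach to spindle microtubules through kinetochores, which are built on nucleosomes that hold the histone variant CENPA. The spindle assembly checkpoint delays anaphase until all are attached. The anaphase-promoting complex (APC/C) with CDC20 then marks securin and cyclin B for destruction. Most of these genes are transcribed late in the cell cycle. Their promoters often hold CCAAT boxes, which NF-Y binds, and a cell cycle genes homology region (CHR), which the MuvB complex binds together with B-MYB and FOXM1 or in the repressive DREAM complex. In a growing cell line their summed level follows the share of cells in G2 and mitosis. In bulk RNA, fewer such cells and less RNA per cell cannot be told apart.

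5 promoters are shown: those of the 2 members with the lowest and the 2 with the highest ratio of shSIK2 over scrambled among measured members with a sequence, and that of CCNB1, cyclin B1. Each is the 250 bases before the transcription start, 5′ to 3′ on the gene's strand, from RefSeq on GRCh38.p14. Capitals mark the letters CCAAT or their reverse complement ATTGG, and a CHR written as TTTGAA, its reverse complement TTCAAA, or TTCGAA, on either strand. CENPA lies at chr2:26785806-26786055 (plus strand), KIF4A at chrX:70289854-70290103 (plus), SPC24 at chr19:11155783-11156032 (minus), CDC25B at chr20:3796060-3796309 (plus) and CCNB1 at chr5:69166900-69167149 (plus). CDC25B has 4 starts in that table, and the one with the most matches is shown.
CENPA: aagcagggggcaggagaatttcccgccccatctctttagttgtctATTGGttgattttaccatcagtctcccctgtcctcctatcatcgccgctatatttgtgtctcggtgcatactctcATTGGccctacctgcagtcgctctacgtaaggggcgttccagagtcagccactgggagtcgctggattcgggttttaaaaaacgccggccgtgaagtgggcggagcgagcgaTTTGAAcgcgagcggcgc
KIF4A: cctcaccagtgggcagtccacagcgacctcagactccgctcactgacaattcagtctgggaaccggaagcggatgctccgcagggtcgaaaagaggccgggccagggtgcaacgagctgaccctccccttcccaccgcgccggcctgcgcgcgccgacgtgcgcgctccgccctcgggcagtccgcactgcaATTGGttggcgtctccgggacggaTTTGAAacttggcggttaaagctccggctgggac
SPC24: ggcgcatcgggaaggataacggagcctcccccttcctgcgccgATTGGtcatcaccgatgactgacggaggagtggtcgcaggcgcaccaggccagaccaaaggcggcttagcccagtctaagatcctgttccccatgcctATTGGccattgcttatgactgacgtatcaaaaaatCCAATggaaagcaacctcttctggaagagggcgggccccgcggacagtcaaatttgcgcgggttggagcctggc
CDC25B: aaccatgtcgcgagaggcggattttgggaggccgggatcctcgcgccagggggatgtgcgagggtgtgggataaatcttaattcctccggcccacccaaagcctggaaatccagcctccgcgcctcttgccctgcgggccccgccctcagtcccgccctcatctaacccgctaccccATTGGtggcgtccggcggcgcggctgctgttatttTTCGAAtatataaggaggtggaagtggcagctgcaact
CCNB1: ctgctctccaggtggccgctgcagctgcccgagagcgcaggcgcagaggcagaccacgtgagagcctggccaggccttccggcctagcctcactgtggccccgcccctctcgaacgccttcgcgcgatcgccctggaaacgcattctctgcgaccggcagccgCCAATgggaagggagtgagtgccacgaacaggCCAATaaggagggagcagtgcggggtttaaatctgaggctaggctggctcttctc
Of these, CENPA, KIF4A and CDC25B held at least 1 match of each kind, and SPC24 and CCNB1 held CCAAT matches with no CHR match in this spelling. The lowest member, CENPA, thus held the pair of motifs, and so did the highest, CDC25B, at the start shown, which was chosen for its matches. Start 2 of CDC25B held a CCAAT match alone, and starts 1 and 4 held neither motif. Which start these cells use was not determined.

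Of the 48 members 47 were measured, which means at least 1 FPKM in the higher library. As a set they differed little between the libraries. At least 2-fold lower in the shSIK2 library was 1 member, CENPA, against 8.28% of all 12866 measured genes, and 0 members were at least 2-fold higher, against 11.0%. At least 1.5-fold lower were 12 members (25.5%), against 21.3% of all measured genes, and 4 were at least 1.5-fold higher (8.51%), against 19.7%. Of the 7665 measured genes that reach 5 FPKM, as 45 of the 47 members do, 5.61% were at least 2-fold higher and 7.19% lower, and 12.4% were at least 1.5-fold higher and 23.3% lower. These calls used the log2 ratio of FPKM with 0.1 added to each value. The 12 were CDK1, CDC25A, CDC25C, BIRC5, CDCA8, NUF2, CENPA, CENPN, KIF2C, KIF4A, KIF14 and KIF18A, and the 4 were CDC25B, SPC24, CENPM and KIF20A. The median log2 ratio was -0.28 over the 47, against -0.11 over all measured genes, a difference of -0.17. With members and reference both held to at least 5 FPKM, that difference was -0.08. Their ratios lay below the median of all measured genes for 30 of 47. From the lower to the upper quartile the members spanned -0.58 to 0.07, and all measured genes -0.51 to 0.42. The deposited values were not scaled to each library's read total. Multiplying the shSIK2 values by 1.10, which equalises the totals, adds 0.14 to the log2 ratio, less for low genes because of the added 0.1, and puts the all-gene median at 0.03. It left 0 members 2-fold lower (6.04% of all measured genes) and 5 at least 1.5-fold lower (15.8%), namely CENPA, KIF4A, KIF18A, BIRC5 and CDK1. The same 4 were at least 1.5-fold higher (24.0% of all), so that 4 of 9 calls were higher in place of 4 of 16, and 0 were 2-fold higher (13.4%). Of the 7665 genes that reach 5 FPKM, 16.4% were at least 1.5-fold higher and 16.3% lower at equal totals.

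**Figure D1:**
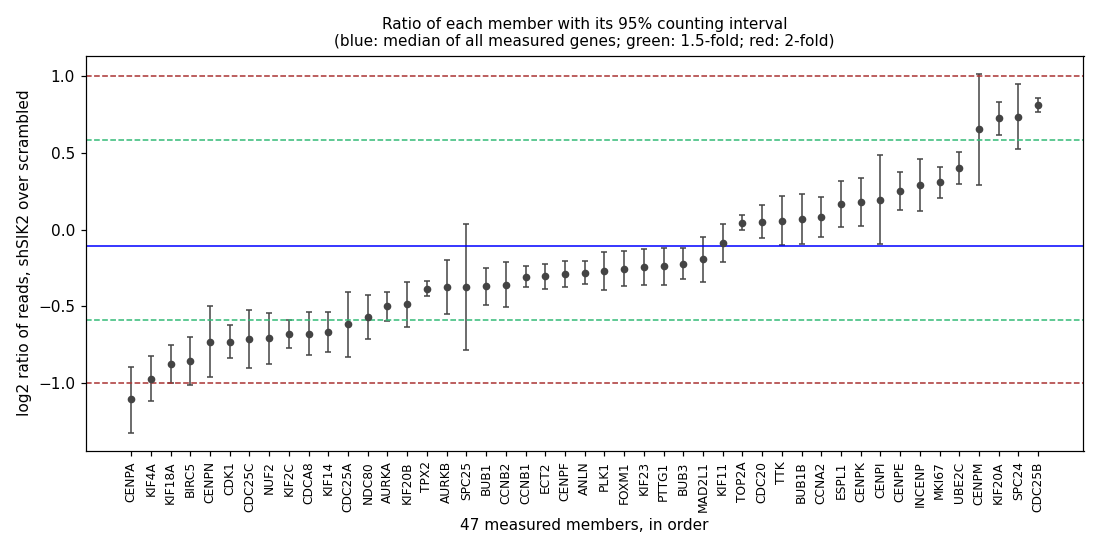
Log2 ratio of reads (shSIK2 over scrambled, vertical axis) for each of the 47 measured members (horizontal axis, in order), with bars for the 95% counting interval of 1 library against 1. CENPA lies past the red line for 2-fold lower, and CDC25B, SPC24, KIF20A and CENPM lie above the green line for 1.5-fold higher.

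By level, TPX2, CDC25B, CCNB1, TOP2A and UBE2C were the highest members in the scrambled library, in that order, and the same 5 led in the shSIK2 library, with CDC25B at the top. All 47 lay between 2.54 and 129.9 FPKM in the scrambled library, and between 2.90 and 164 in the shSIK2 library. The lowest in both was CENPI, a subunit of the inner kinetochore. Across the 47 members, which share 2 libraries, log2 FPKM correlated with a Pearson r of 0.93. The 48 members took up 41.4 of every 10000 reads in the scrambled and 42.6 in the shSIK2 library. CDC25B alone supplied 9.28% and 17.4% of those reads. Without it the members took up 37.5 and 35.2 of every 10000 reads.

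**Figure D2:**
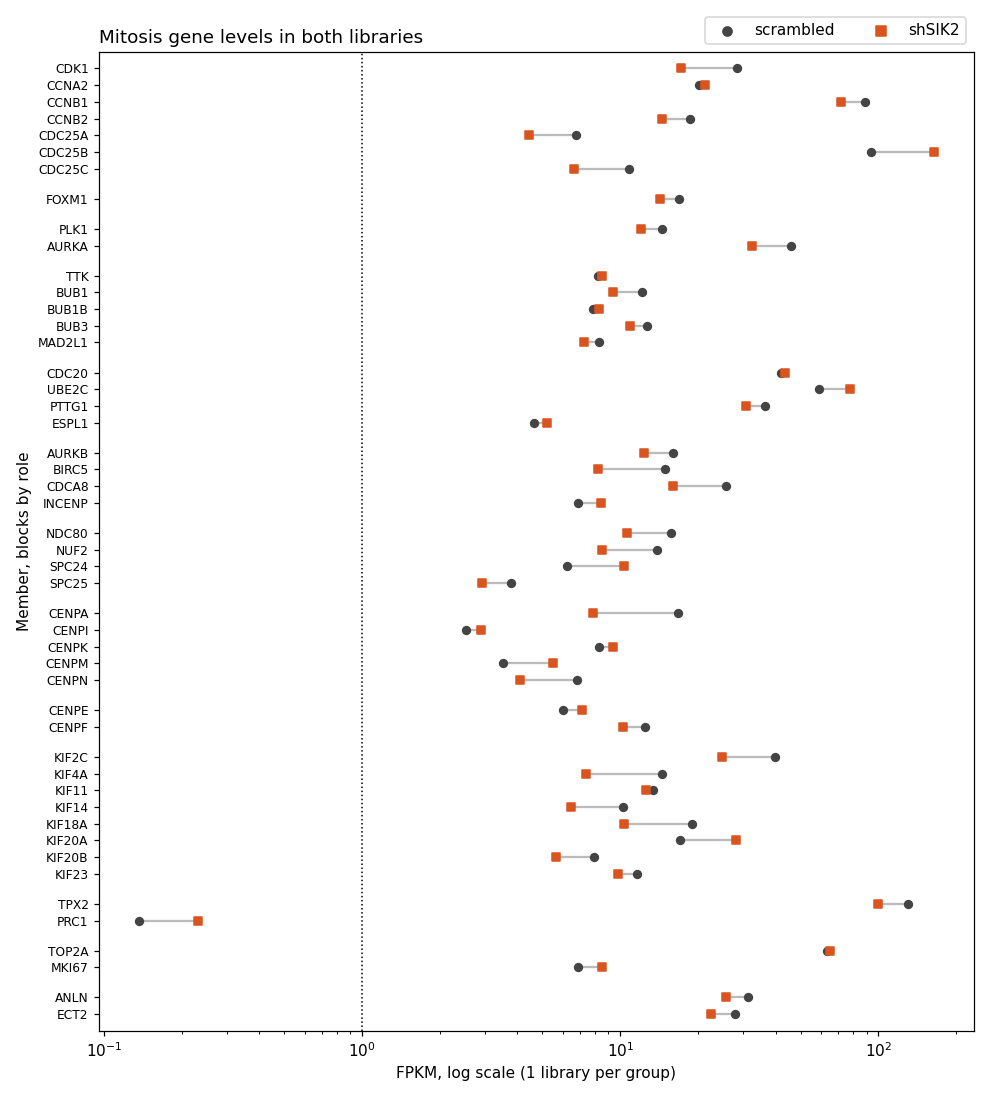
FPKM (log scale) of all 48 members in the scrambled library (dark circles) and the shSIK2 library (orange squares), in blocks by role, with a dotted line at the minimum of 1 FPKM. PRC1 lies below that line in both libraries, and all others lie above 2.5 FPKM in both.

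Genes of the CDK1 switch differed in direction. CDK1 (chromosome 10, 60778331 to 60794852 on GRCh38), the kinase that drives mitotic entry, stood at 28.4 FPKM in the scrambled and 17.1 FPKM in the shSIK2 library, from 1917 and 1157 reads. It was 1.66-fold lower (1.54 to 1.78). CCNB1, its main mitotic cyclin (chromosome 5, 69167010 to 69178245), was one of the most abundant members, at 88.5 FPKM in the scrambled and 71.6 FPKM in the shSIK2 library, and was 1.24-fold lower (1.18 to 1.30) from 3886 and 3142 reads. CCNB1 transcripts therefore stood at 3.12 times the CDK1 level per length in the scrambled and at 4.17 times in the shSIK2 library. CCNB2, the other B-type cyclin of the set, stood at 18.6 and 14.5 FPKM. CCNA2, cyclin A2, which acts from S phase to early mitosis, stood at 20.2 and 21.4 FPKM, a ratio of 1.06 with an interval of 0.968 to 1.16 that includes equality.

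The 3 CDC25 phosphatases, which remove inhibitory phosphate from CDKs, split. CDC25B (chromosome 20, 3786772 to 3806121), which acts early at the centrosome, had the highest ratio of all members. It stood at 93.4 FPKM in the scrambled and 164 FPKM in the shSIK2 library, from 6917 and 12128 reads, and was 1.75-fold higher (1.70 to 1.81). CDC25A stood at 6.76 and 4.42 FPKM and was 1.53-fold lower (1.33 to 1.77), and CDC25C stood at 10.8 and 6.62 FPKM and was 1.64-fold lower (1.44 to 1.87). Per length, CDC25B exceeded CDC25C 8.62-fold in the scrambled and 24.8-fold in the shSIK2 library. At equal totals CDC25A and CDC25C were below 1.5-fold, with log2 ratios of -0.47 and -0.57, while CDC25B stood at 0.95. FOXM1, the transcription factor of late cell cycle genes, stood at 16.96 FPKM in the scrambled and 14.2 FPKM in the shSIK2 library, 1.19-fold lower (1.10 to 1.29) from 1426 and 1196 reads.

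Both kinases of spindle assembly were lower by less than 1.5-fold. PLK1, polo-like kinase 1, stood at 14.5 FPKM in the scrambled and 12 FPKM in the shSIK2 library, from 1183 and 980 reads, and was 1.21-fold lower (1.11 to 1.32). AURKA, the centrosomal Aurora kinase, stood at 45.9 and 32.5 FPKM and was 1.41-fold lower (1.33 to 1.51). TPX2, which activates AURKA on spindle microtubules, was the most abundant member of the scrambled library. It stood at 129.9 FPKM in the scrambled and 99.5 FPKM in the shSIK2 library, from 8036 and 6158 reads, and was 1.30-fold lower (1.26 to 1.35), so the TPX2 to AURKA level ratio was 2.83 in the scrambled and 3.06 in the shSIK2 library.

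None of the 5 checkpoint genes differed by 1.5-fold, nor did any of the 4 genes of anaphase onset. Of all measured genes 59.0% lay within 1.5-fold, and 64.3% of those with at least 5 FPKM. The 5 spanned the smallest range of the role groups with at least 4 members, from -0.37 to 0.07 on the log2 scale. BUB1, a kinetochore kinase that recruits the checkpoint proteins, was the lowest, at 12.1 FPKM in the scrambled and 9.39 FPKM in the shSIK2 library, 1.29-fold lower (1.19 to 1.41) from 1256 and 972 reads. BUB3, which carries BUB1 to kinetochores, stood at 12.7 and 10.9 FPKM, and MAD2L1, the inhibitor of CDC20, at 8.31 and 7.27 FPKM. TTK, the kinase at the head of the checkpoint, stood at 8.19 and 8.53 FPKM, and BUB1B, the BUBR1 subunit of the mitotic checkpoint complex, at 7.88 and 8.27 FPKM. The counting intervals of TTK and BUB1B include equality.

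Of the genes of anaphase onset, 3 of 4 lay at or above equality as deposited. CDC20, the APC/C activator that the checkpoint holds back, stood at 41.8 FPKM in the scrambled and 43.3 FPKM in the shSIK2 library, from 1461 and 1515 reads, and its ratio of 1.04 has an interval of 0.964 to 1.11, which includes 1. UBE2C, the ubiquitin-conjugating enzyme of the APC/C, stood at 58.9 FPKM in the scrambled and 77.8 FPKM in the shSIK2 library, from 1301 and 1717 reads, and was 1.32-fold higher (1.23 to 1.42). Securin, encoded by PTTG1, stood at 36.2 and 30.7 FPKM and was 1.18-fold lower (1.09 to 1.28). Its target ESPL1, the protease separase, stood at 4.62 and 5.19 FPKM and was 1.12-fold higher (1.01 to 1.25). The median log2 ratio of the 4 was 0.11 as deposited. It was -0.12 once a trend with GC content and exon length was removed, which turned CDC20 and ESPL1 below 0.

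Of the chromosomal passenger complex, the 2 small targeting subunits were lower and the scaffold was not. BIRC5, survivin (chromosome 17, 78214186 to 78225636), stood at 14.9 FPKM in the scrambled and 8.23 FPKM in the shSIK2 library, from 974 and 539 reads, and was 1.81-fold lower (1.62 to 2.01). CDCA8, borealin, stood at 25.6 and 16.02 FPKM and was 1.60-fold lower (1.45 to 1.76). AURKB, the kinase of the complex, stood at 16.02 FPKM in the scrambled and 12.3 FPKM in the shSIK2 library, from 616 and 475 reads, and was 1.30-fold lower (1.15 to 1.46). INCENP, the scaffold that binds all of them, stood at 6.85 and 8.39 FPKM and was 1.22-fold higher (1.09 to 1.38). INCENP transcripts were at 0.461 times the BIRC5 level per length in the scrambled and at 1.02 times in the shSIK2 library. With the GC and length trend removed, INCENP stood at -0.06 and BIRC5 at -0.89.

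The 4 subunits of the NDC80 complex, the rod that couples kinetochores to microtubules, also differed among themselves. NDC80, which binds the microtubule, stood at 15.7 FPKM in the scrambled and 10.6 FPKM in the shSIK2 library, from 972 and 656 reads, and was 1.48-fold lower (1.34 to 1.64). Its partner NUF2 stood at 13.9 and 8.51 FPKM and was 1.63-fold lower (1.46 to 1.83). At the kinetochore end of the rod, SPC24 (chromosome 19, 11131520 to 11155808) stood at 6.22 FPKM in the scrambled and 10.3 FPKM in the shSIK2 library, from 303 and 504 reads, and was 1.66-fold higher (1.44 to 1.92). SPC25, its direct partner, had the fewest reads of the 4, 119 and 92, and its ratio of 0.773 has an interval of 0.582 to 1.02. NDC80 exceeded SPC24 2.53-fold per length in the scrambled library, and both were at nearly the same level in the shSIK2 library (1.03-fold).

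CENPA, the centromeric histone H3 variant (chromosome 2, 26764289 to 26801067), had the lowest ratio of the set. It stood at 16.8 FPKM in the scrambled and 7.82 FPKM in the shSIK2 library, from 572 and 266 reads, and was 2.15-fold lower (1.86 to 2.50). Its log2 ratio was -1.09 as deposited, -0.96 at equal totals and -1.03 with the GC and length trend removed. CENPN, which binds CENPA nucleosomes, stood at 6.79 FPKM in the scrambled and 4.10 FPKM in the shSIK2 library, from 416 and 251 reads, and was 1.66-fold lower (1.41 to 1.95). Among the other inner kinetochore members, CENPM stood at 3.51 FPKM in the scrambled and 5.51 FPKM in the shSIK2 library, from 107 and 168 reads, and was 1.57-fold higher (1.22 to 2.02). CENPI and CENPK, partners of CENPM in the same subcomplex, stood at 2.54 and 2.90 FPKM and at 8.28 and 9.38 FPKM. The ratio of CENPM rests on few reads, and its interval spans both neighbours below it in rank, UBE2C and MKI67. Of the fibrous corona, the kinesin CENPE stood at 5.98 and 7.11 FPKM, 1.19-fold higher (1.09 to 1.30), and CENPF at 12.5 and 10.2 FPKM, 1.22-fold lower (1.15 to 1.29).

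Mitotic kinesins had the lowest median of the role groups with at least 5 members, -0.57, with 4 of 8 at least 1.5-fold lower (21.3% of all measured genes) and 1 higher (19.7%). At equal totals 2 of the 8 were lower (15.8% of all measured genes) and 1 higher (24.0%). KIF4A, a chromokinesin (chromosome X, 70290090 to 70420832), stood at 14.5 FPKM in the scrambled and 7.39 FPKM in the shSIK2 library, from 1126 and 575 reads, and was 1.96-fold lower (1.77 to 2.17). KIF18A, which dampens chromosome oscillations, stood at 19.02 FPKM in the scrambled and 10.4 FPKM in the shSIK2 library, from 1524 and 831 reads, and was 1.83-fold lower (1.68 to 1.998). KIF2C, the microtubule depolymerase MCAK, stood at 39.7 and 24.8 FPKM and was 1.60-fold lower (1.5 to 1.71), and KIF14, a motor of cytokinesis, stood at 10.2 and 6.45 FPKM and was 1.59-fold lower (1.45 to 1.73). At equal totals KIF2C and KIF14 were short of 1.5-fold. KIF11, the Eg5 motor that separates the spindle poles, stood at 13.4 FPKM in the scrambled and 12.6 FPKM in the shSIK2 library, from 1114 and 1050 reads, a ratio of 0.943 with an interval of 0.866 to 1.03, and its log2 ratio of -0.08 turned to 0.05 at equal totals.

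The pair KIF20A and KIF20B went apart. KIF20A, a motor of the central spindle that brings PLK1 and the passenger complex to it (chromosome 5, 138178719 to 138187715), stood at 17 FPKM in the scrambled and 28.1 FPKM in the shSIK2 library, from 1155 and 1907 reads, and was 1.65-fold higher (1.53 to 1.78). KIF20B stood at 7.90 and 5.64 FPKM and was 1.40-fold lower (1.27 to 1.55). Per length, KIF20A exceeded KIF20B 2.15-fold in the scrambled and 4.98-fold in the shSIK2 library. KIF23, the motor of centralspindlin, stood at 11.6 and 9.78 FPKM. The cytokinesis genes ANLN and ECT2 had nearly equal ratios. ANLN, the anillin scaffold of the contractile ring, stood at 31.3 FPKM in the scrambled and 25.7 FPKM in the shSIK2 library, 1.21-fold lower (1.15 to 1.28) from 3227 and 2656 reads. ECT2, the exchange factor that activates RHOA at the cleavage site, stood at 27.9 and 22.6 FPKM, 1.23-fold lower (1.17 to 1.31).

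TOP2A and MKI67 were at or above equality, unlike 31 of the 47 measured members. TOP2A, topoisomerase II alpha (chromosome 17, 40388516 to 40417950), stood at 63.2 FPKM in the scrambled and 65.2 FPKM in the shSIK2 library, from 6983 and 7202 reads, a ratio of 1.03 with an interval of 0.998 to 1.07. MKI67, which encodes the Ki-67 antigen that coats mitotic chromosomes, stood at 6.86 FPKM in the scrambled and 8.48 FPKM in the shSIK2 library, from 1507 and 1864 reads, and was 1.24-fold higher (1.16 to 1.32). MKI67 was above equality at equal totals and with the GC and length trend removed as well, at 0.44 and 0.42 on the log2 scale.

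PRC1, the crosslinker of the spindle midzone, was the 1 member below 1 FPKM, at 0.14 and 0.23 FPKM from 13 and 22 reads. In GENCODE release 29, 58.4% of its 5525 exonic bases are shared with exons of other genes. The largest share falls to AC068831.7, a gene on the same strand of chromosome 15 (90966190 to 91022566), which had 88 and 93 reads. The sources used here do not say how reads in shared exons were counted, so the level of PRC1 is uncertain. CENPN shares 22.8% of its exonic bases, on the opposite strand, with CMC2, which had 813 and 492 reads. No other member shares over 20%.

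Ratios across the transcriptome followed GC content (Spearman rho 0.28 over 12863 measured genes, which share the 2 libraries), and rho was 0.20 over the 47 members. Among the 15 members with the highest GC content (49.3% to 61.4%), the median log2 ratio was -0.24, against 0.04 over the 4515 measured genes in that range. Among the 15 with the lowest (32.9% to 40.8%), it was -0.30, equal to the -0.30 over 2577 genes of that range. For the 17 between, it was -0.31 against -0.23. At least 1.5-fold higher and lower were 3 and 4 of the members with the highest GC content, 1 and 4 of those between, and 0 and 4 of those with the lowest. These differences were not tested. With the GC and length trend removed, the member median relative to all measured genes was -0.09, 9 members were at least 1.5-fold lower (21.6% of all measured genes) and 2, KIF20A and SPC24, were at least 1.5-fold higher (17.3%). At least 2-fold lower was CENPA alone (8.50% of all), and 0 members were 2-fold higher (9.21%). The part of GC content in these ratios was not tested beyond this.

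**Figure D3:**
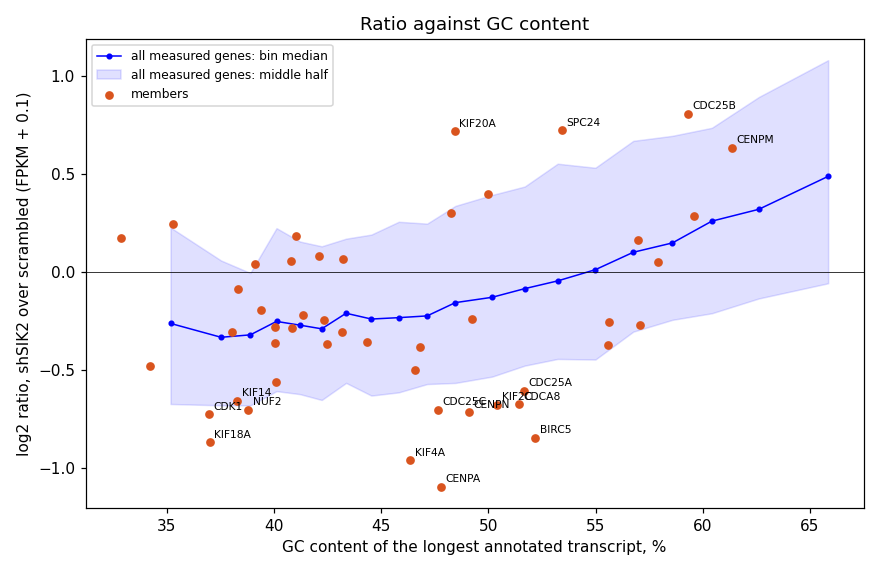
Log2 ratio of shSIK2 over scrambled FPKM plus 0.1 (vertical) against the GC content of the longest transcript in percent (horizontal), for the 47 measured members (orange) and as the median (blue line) and middle range (25th to 75th percentile, band) of all measured genes in 20 GC bins. CENPA, KIF4A and BIRC5 are among those below the band, and KIF20A, SPC24 and CDC25B lie above it.

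A RefSeq promoter entry was found for 40 of the 48 members, 50 promoters in all. None was found for BIRC5, AURKA, CENPM, FOXM1, TPX2, TTK, UBE2C and BUB3. Within the 300 bases from 250 before to 50 after the start, 76.0% of the 50 held at least 1 CCAAT match, against 34.6% of all 35116 promoters in that table. A CHR match was present in 64.0%, against 16.4% of all, and both motifs in 54.0%, against 6.38%. Of the 73 CCAAT and 43 CHR matches in member promoters, 2 pairs of CCAAT and CHR matches overlapped, in CDCA8 and MKI67. Relative to the start, CCAAT matches centred at a median of -75.5 bases and CHR matches at -20 bases. Windows of nearby starts of 1 gene overlap, as in AURKB, PTTG1 and CDC25C. Some sites therefore count more than 1 time in these totals, shares and medians. The promoter of KIF20A, another of the higher members, held 2 CCAAT matches and no CHR match, as did that of CDC25A among the lower ones.

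Members with a CHR match in any promoter (28 measured) had a median log2 ratio of -0.33, with 9 at least 1.5-fold lower and 1, CDC25B, at least 1.5-fold higher. The 11 measured members with a promoter entry and no CHR match had a median of 0.08, with 2 lower, CDC25A and KIF2C, and 2 higher, SPC24 and KIF20A. Only TTTGAA and TTCGAA were searched, so promoters without a match may still hold a CHR in another spelling. Over all measured protein-coding genes with an entry, the medians were -0.20 for 1299 genes with a CHR match and -0.13 for 7277 without. Of the 1299, 23.3% were at least 1.5-fold lower and 13.9% higher, and of the 7277, 19.3% and 16.1%. The 28 members also had a lower median GC content, 42.4% against 48.4%. With the GC and length trend removed their median was -0.22 and that of the 11 was 0.24. These differences were not tested. With CCAAT matches the medians were close, at -0.29 for 32 members with one and -0.28 for 7 without.

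**Figure D4:**
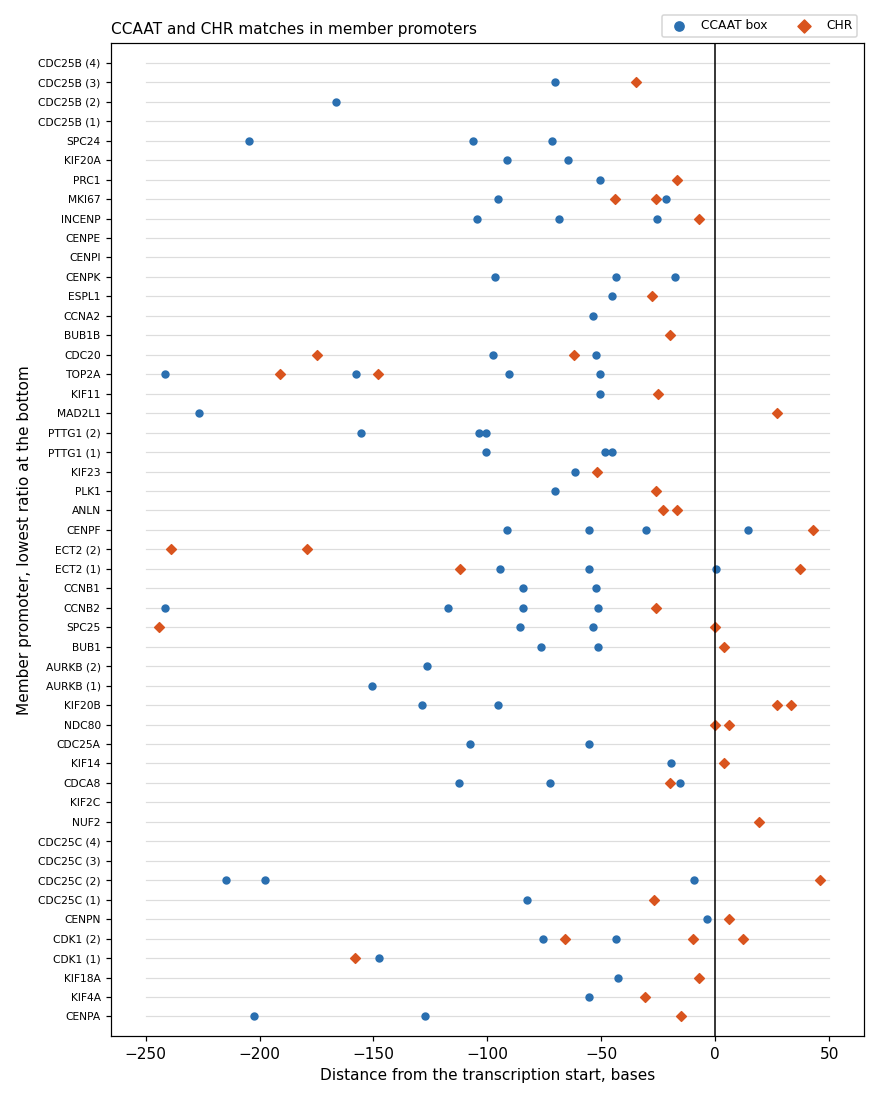
Positions of CCAAT (blue circles) and CHR (orange diamonds) matches relative to the transcription start (horizontal, bases) in the 50 member promoters (vertical, ordered by the member's log2 ratio, numbers marking several starts of 1 gene). CHR matches gather close to the start line and CCAAT matches before it. CENPI, CENPE and KIF2C show neither, as do starts 1 and 4 of CDC25B and starts 3 and 4 of CDC25C.

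Among 130 other genes of mitosis, listed by complex, 126 were measured. Of these 3 (2.38%, against 8.28% of all measured genes) were at least 2-fold lower, SKA1, SKA3 and DIAPH3. At least 2-fold higher were 0, against 11.0% of all. At least 1.5-fold lower were 28 (22.2%), near the 21.3% of all measured genes, and at least 1.5-fold higher 8 (6.35%, against 19.7%), with a median log2 ratio of -0.26, close to the -0.28 of the members. At equal totals the counts were 18 (14.3%, against 15.8%) and 9 (7.14%, against 24.0%). Counts for single lists below rest on few genes and are as deposited unless equal totals are named. Those as deposited are to be read against the 21.3% lower and 19.7% higher of all measured genes. These shares were 20.4% and 16.5% over measured protein-coding genes, and 23.3% and 12.4% over measured genes with at least 5 FPKM. Counts at equal totals are to be read against 15.8% lower and 24.0% higher of all measured genes. Over measured genes with at least 5 FPKM, the shares at equal totals were 16.3% and 16.4%.

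Of 16 other outer kinetochore and checkpoint genes, 3 were at least 1.5-fold lower and 1 higher. The lowest belonged to the Ska complex, which helps NDC80 hold on to shortening microtubules. SKA3 stood at 14.1 FPKM in the scrambled and 5.14 FPKM in the shSIK2 library and was 2.74-fold lower (2.38 to 3.16), and SKA1 at 10.1 and 4.36 FPKM, 2.31-fold lower (1.97 to 2.72). SKA2, the remaining subunit, stood at 13.7 and 9.33 FPKM, 1.47-fold lower (1.31 to 1.65). DSN1, a subunit of the MIS12 complex that anchors NDC80, stood at 15.2 and 26.8 FPKM and was 1.76-fold higher (1.60 to 1.93). Of the proteins that load CENPA, the chaperone HJURP stood at 8.74 and 7.73 FPKM and MIS18A at 6.59 and 4.06 FPKM. Among 14 measured genes of CENPA loading and the inner kinetochore, 4 were lower by 1.5-fold or more and 1 was higher, and at equal totals 2 lower and 1 higher. CENPU was 1.82-fold lower (1.56 to 2.12) and CENPX 1.54-fold higher (1.34 to 1.77).

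Of 8 condensin genes, which compact mitotic chromosomes, 0 passed 1.5-fold, as deposited and at equal totals. As deposited, 59.0% of all measured genes lay within 1.5-fold, and 64.3% of those with at least 5 FPKM. The largest condensin ratios relative to all measured genes were those of NCAPG, 1.36-fold lower (1.22 to 1.52), and NCAPH2, 1.18-fold higher (1.03 to 1.34). Of 15 cohesin genes, 5 were at least 1.5-fold lower and 0 higher, and at equal totals 4 lower and 0 higher. WAPL, which releases cohesin, was 1.94-fold lower (1.82 to 2.08), and SGO1, which protects centromeric cohesin, 1.90-fold lower (1.61 to 2.25). Of 15 measured genes of the APC/C and its partners FZR1 and UBE2S, 5 were at least 1.5-fold lower and 0 higher, and at equal totals 2 lower and 1 higher. The lowest were ANAPC16, 1.93-fold lower (1.77 to 2.11), and CDC27, 1.70-fold lower (1.60 to 1.80). Of 14 measured augmin and gamma-tubulin genes, which nucleate spindle microtubules, 4 (28.6%) were higher by 1.5-fold or more, against 19.7% of all measured genes. Lower by that measure were 3 (21.4%), near the 21.3% of all. TUBGCP6 was 1.85-fold higher (1.64 to 2.09) and HAUS5 1.71-fold higher (1.46 to 2.01), and with the GC and length trend removed their log2 ratios were 0.47 and 0.70.

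Of 11 other mitotic kinases and CDK1 inhibitors, 2 were at least 1.5-fold lower and 1 higher. NEK7 was 1.92-fold lower (1.81 to 2.03) and PKMYT1, which phosphorylates CDK1 to hold it inactive, 1.66-fold higher (1.36 to 2.03). WEE1, which acts on CDK1 in the same way, stood at 5.48 and 4.76 FPKM. The 16 other spindle proteins and motors included 2 that were 1.5-fold lower or more and 0 higher, and at equal totals 0 lower and 0 higher. KIFC1 was 1.56-fold lower (1.39 to 1.74) and CKAP2 1.52-fold lower (1.44 to 1.60). Among 8 other cytokinesis genes, 3 were lower and 1 higher by that measure, and at equal totals 2 lower and 1 higher. DIAPH3, a formin, was 2.30-fold lower (2.10 to 2.53), and the septin SEPT9 was 2.01-fold higher (1.86 to 2.18), its log2 ratio with 0.1 added being 0.99 as deposited and reaching 1.13 at equal totals. For 9 measured MuvB and DREAM genes the counts were 1 lower and 0 higher. LIN9, the lower one, was 1.80-fold lower (1.54 to 2.10) and MYBL2, which encodes B-MYB, 1.34-fold higher (1.26 to 1.44).

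DNA replication genes, the other large group of cell cycle genes, had a higher median than the mitosis genes, 0.30 over 29 measured genes. At 2-fold, 4 of them (13.8%) were higher, near the 11.0% of all measured genes, and 0 were lower (8.28% of all). At 1.5-fold, 10 (34.5%) were higher, against 19.7% of all, and 1 (3.45%) lower, against 21.3%. LIG1, a DNA ligase, was 3.29-fold higher (2.69 to 4.04), and CDT1, a licensing factor, 2.60-fold higher (2.27 to 2.98). With the GC and length trend removed the medians were 0.32 for replication and -0.20 for the members. The difference between the lists could not be tested with 1 library per group.

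**Figure D5:**
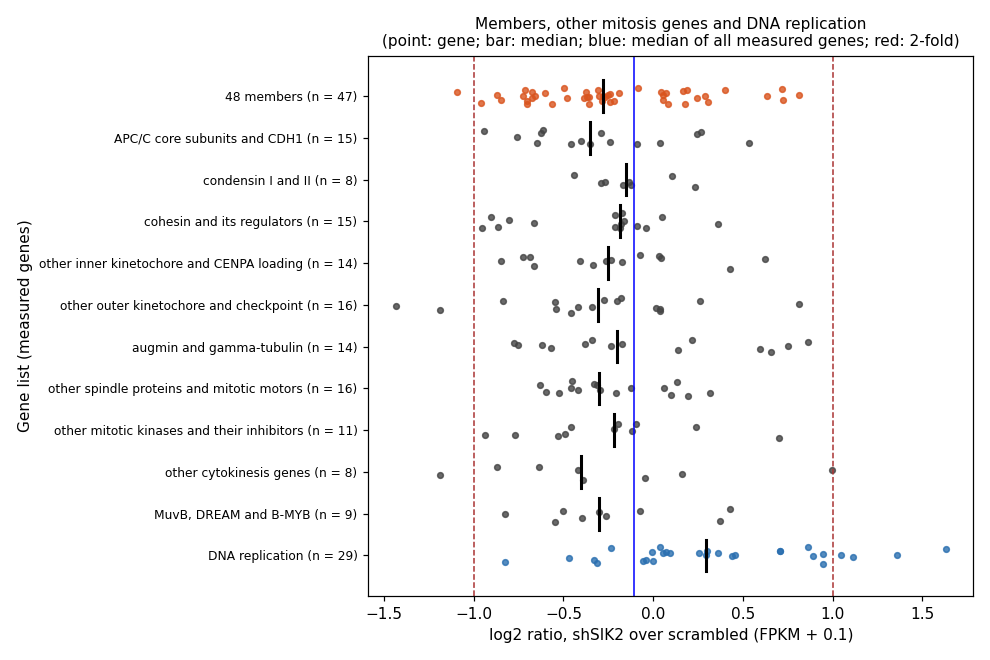
Log2 ratio of shSIK2 over scrambled FPKM plus 0.1 (horizontal) of each measured gene (points) in the members, in 10 lists of other mitosis genes and in the DNA replication list (vertical), with list medians as black bars and the median of all measured genes as a blue line. Each list median of mitosis genes lies left of the blue line, and the replication median lies right of it.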

How the data were processed

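Per the labels' protocols, Trizol was used for RNA and a standard Illumina method for libraries. The submitters' processing notes name HISAT2 2.0.5 and hg18. The sources used here do not give the counter, annotation, strand handling or FPKM formula. Per the file headers, each of the 2 deposited tables holds FPKM for 58735 Ensembl genes. All matched GENCODE release 29 (GRCh38), which gave symbols, exon lengths, GC content and gene coordinates. FPKM times exon length gave whole multiples of a step of 58.3 in both tables for 100% of values above 0 (tolerance 0.001), taken as reads. Release 29 lies on another build than hg18, and which one was aligned to is not settled. The deposited values share 1 divisor and are not scaled to each library's total. Having 1 library a group, the design allows no test.

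Groups came from the sample titles. The members, lists and rules were chosen with earlier results of these data known. Log2 ratios are of shSIK2 over scrambled FPKM plus 0.1, which understates low genes. A gene counted as measured if its higher value reached 1 FPKM. Folds are ratios of reads as deposited, with exact (Clopper-Pearson, conditional on the sum) 95% intervals in parentheses. Without molecular identifiers, reads are not independent molecules, so these cover counting error only. By the rule for named genes, full values are given for 14 core members and the 6 highest and 6 lowest, and companion genes are those with the 2 largest ratios relative to all measured genes per list. SKA2, DSN1, HJURP, MIS18A and WEE1 were named after their values were seen. GC and length trends were removed by medians in 20 bins each, repeated once. Scripts were tested on simulated data. Python 3.11.15 was used, with scipy 1.17.1 for intervals, pandas 2.3.3 and numpy 2.4.6 for tables, and matplotlib 3.10.9 for plots. The alternatives were other pseudocounts, scalings, filters, references and the trend removal.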

Additional observations from a re-analysis of the deposited data

How the results depend on the processing

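No paired analysis was possible because each group held 1 library, and for the same reason no library could be left out. Over pseudocounts of 0.01 and 1, 3 other filters, a protein-coding reference, 2 other scalings and the removal of the GC and length trend, members at least 2-fold higher numbered 0 throughout. Members at least 2-fold lower numbered 0 at equal totals and 0 at equal upper quartiles, in place of 1. The share of all measured genes was 6.04% at equal totals, in place of 8.28%. Members at least 1.5-fold lower numbered 5 at equal totals and 4 at equal upper quartiles, in place of 12. Of all measured genes 15.8% were so at equal totals, in place of 21.3%. Equal upper quartiles add about 0.18 to the log2 ratio, and the shares of all genes were not computed there. With the trend removed 2 members were at least 1.5-fold higher (17.3% of all measured genes), in place of 4 (19.7%). The member median relative to all genes was -0.27 with no filter, in place of -0.17, with the 48 members against all genes above 0 in either library, and -0.08 with at least 5 FPKM. No member past 1.5-fold changed direction. Of the others, KIF11 changed sign at equal totals and at equal upper quartiles, and KIF11, MAD2L1, CDC20, ESPL1 and INCENP with the trend removed. The 150 bases nearest the start held a CCAAT match in 32 and a CHR match in 25 of 50 member promoters. Of all 35116 promoters, 22.6% held a CCAAT match and 7.69% a CHR match in those bases. Depth limits SPC25, CENPM and PRC1 most.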

Other observations

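Several members have near-identical copies elsewhere in the genome, and their own values are uncertain to that extent. KIF4B, a retrocopy of KIF4A, had 3 reads in each library. PTTG2, a copy of PTTG1, had 0 in both. The pseudogenes UBE2CP1 and CDC20P1 had 1 and 4 reads and 1 and 7 reads, scrambled library before shSIK2. AURKAP1 had 2 and 0 reads and CCNB2P1 had 0 and 2. The sources used here do not say how reads that match several places were assigned.

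Of the 48 members, 17 share some exonic bases with another gene. Besides PRC1 and CENPN the shares were under 20%. CMC2, on the strand opposite CENPN, went from 813 reads in the scrambled library to 492 in the shSIK2 library, beside 416 and 251 for CENPN. METTL15, opposite KIF18A over 1.31% of its exonic bases, had 872 and 543 reads, beside 1524 and 831 for KIF18A. CENPA shares 6.96% of its exonic bases with SLC35F6 on the same strand (1246 and 1054 reads). KIF4A shares 1.70% with PDZD11 on the opposite strand (781 and 717 reads). These pairs all have a lower member. In them the neighbour was lower too, though by less for SLC35F6 and PDZD11. Apart from CENPN they are not the largest shares, as FOXM1 shares 15.9%, PLK1 12.5%, BUB1B 10.2% and CCNA2 9.08% of its exonic bases. For KIF20A, which was higher, the neighbour BRD8 had 953 and 1002 reads. For KIF2C, which was lower, the neighbour AL592166.1 had 1 and 6 reads. The remaining pairs among the 17 are not listed, and the part of the shared bases was not tested.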
